A study of Homo sapiens with 8 samples.

Results

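The genes described here encode the extracellular matrix and the enzymes that cross-link it, in H1299 cells, a long-established human line from a non-small cell lung cancer. The list held 49 genes, covering collagens, laminins, other matrix glycoproteins, proteoglycans, and the enzymes and chaperone that mature collagen. Members were found by their symbol: every probe set whose platform annotation gave exactly 1 gene symbol, equal to a listed name, was taken. This gave 179 of 49395 probe sets, standing for 48 of the 49 genes, and LAMA3 was not analysed here. RNA was measured on 8 one-colour Affymetrix arrays. The groups were H1299 given a short hairpin RNA to USF1 (3 arrays) and its labelled controls (3 arrays), and H1299 given a short hairpin RNA to UGT1A3 (1 array) and its labelled control (1 array). All arrays were of the same cell line, and the labels do not give the content of the control hairpins, the hairpin sequences, the time after transfection, or whether cells were pooled or cloned. USF1 is a transcription factor that binds E-box sequences, and UGT1A3 is an enzyme that conjugates glucuronic acid.

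The extracellular matrix is built in layers. Fibril-forming collagens give tensile strength, whereas collagen IV, laminins, nidogen and perlecan assemble into basement membranes, the sheets on which epithelial cells rest. Collagen chains are hydroxylated on proline and lysine in the endoplasmic reticulum, folded with the help of the chaperone SERPINH1, secreted, and cross-linked outside the cell by lysyl oxidases. Carcinoma cells contribute matrix of their own, and proteoglycans of the cell surface such as the syndecans tie it to receptors and growth factors.

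USF1 itself read 6.06, 5.88 and 6.13 in the USF1 knockdown arrays, against 6.31, 6.55 and 6.42 in the USF1 controls (log2 intensity), a change of -0.40 (SE 0.08, limma adjusted p = 0.00818, n = 3 against 3). In the annotation used, UGT1A3 shared every probe set with other UGT1A genes, so its own level is not given. Median log2 intensities were 6.53 to 6.55 on the USF1 arrays and 5.59 to 5.63 on the UGT1A3 arrays, so each knockdown was set only against its own control. Pearson's r between arrays over probe sets was 0.996 to 0.997 between USF1 knockdown and USF1 control arrays and 0.995 in the UGT1A3 pair. The keratin KRT18 (12.8) and the mesenchymal filament VIM (14.6) were bright in both USF1 groups, whereas the epithelial markers EPCAM and CDH1 lay at 3.56 and 4.18 in USF1 knockdown arrays and at 3.44 and 4.10 in USF1 controls. Of 6 fibroblast markers 1, PDGFRB, was bright enough to be tested, and it did not pass. The linear intensities of those 6 summed to 130.4 to 139.3 in USF1 knockdown arrays and 128.5 to 135.6 in USF1 controls, with DCN, LUM, FAP, PDGFRA and THY1 all dim. Of the carcinoma markers KRT8 rose by 0.25 (limma adjusted p = 0.00197), CDH2 rose by 0.28 (limma adjusted p = 0.000477) and ZEB1 fell by 0.10 (limma adjusted p = 0.0307) after USF1 knockdown. KRT18 changed by 0.04 (limma adjusted p = 0.427) and VIM by 0.003 (limma adjusted p = 0.935), and neither passed. KRT19 was dim, like EPCAM and CDH1. The part of these markers in the results below was not tested. The labels do not say whether replicates were separate cultures. The p-values therefore cover only the spread among these arrays, which may be technical. The number of arrays limits the precision.

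Promoter windows are shown for 3 matrix genes. FBN2 is shown because it holds the motif of the depleted factor. SERPINH1 and COL4A5 are shown because, of the 4 genes with the motif of heat shock factors, they changed most after USF1 knockdown. That choice used their measured values. RefSeq starts on GRCh38.p14 were found for 40 of the 49 genes, and the 250 bases before each start were searched on both strands. These 40 genes had 49 windows, so a count of genes is not directly comparable with a share of windows. The E-box CACGTG, the motif bound by USF1, was in the windows of 1 of the 40 genes, FBN2, and in 6.34% of all 35116 windows of that length. The core of the heat shock element, GAANNTTC, was in those of 4 genes, SERPINH1, COL4A5, COL7A1 and LAMA4, and in 5.78% of all windows. After USF1 knockdown COL7A1 changed by 0.05 and did not pass, and LAMA4, dim like COL4A5, changed by 0.14. Their windows are not shown, and a part of heat shock factors was not tested. TGANTCA, the motif of AP-1 factors, was in those of 2 genes, LAMA3 and LAMB3, and in 6.57% of all windows. No window of a matrix gene held more than 1 of the 3 motifs. A match is a description of the letters, and no binding was measured. The sequences below run 5′ to 3′ on the gene's own strand, with the match in capitals. FBN2 lies on the minus strand, with CACGTG 97 to 92 bases before its start. SERPINH1 and COL4A5 lie on the plus strand, with GAANNTTC 71 to 64 and 140 to 133 bases before the start, and the SERPINH1 window is 1 of 2 for that gene.
FBN2, chr5:128538246-128538495: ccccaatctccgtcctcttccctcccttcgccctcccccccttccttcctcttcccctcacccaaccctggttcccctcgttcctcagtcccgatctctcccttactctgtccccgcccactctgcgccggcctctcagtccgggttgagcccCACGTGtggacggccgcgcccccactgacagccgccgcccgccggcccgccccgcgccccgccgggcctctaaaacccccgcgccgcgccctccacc
SERPINH1, chr11:75562003-75562252: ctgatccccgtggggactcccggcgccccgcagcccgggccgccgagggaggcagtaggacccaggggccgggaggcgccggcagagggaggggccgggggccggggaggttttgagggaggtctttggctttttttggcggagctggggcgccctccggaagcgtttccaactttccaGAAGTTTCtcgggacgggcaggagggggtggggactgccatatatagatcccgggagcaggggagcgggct
COL4A5, chrX:108439588-108439837: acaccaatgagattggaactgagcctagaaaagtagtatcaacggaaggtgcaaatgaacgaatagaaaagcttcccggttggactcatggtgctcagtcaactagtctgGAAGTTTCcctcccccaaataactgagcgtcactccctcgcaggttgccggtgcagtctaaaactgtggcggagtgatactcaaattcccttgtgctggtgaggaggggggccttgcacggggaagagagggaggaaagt

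After USF1 knockdown, matrix genes rose more often than they fell. The list was chosen with earlier results of these data known, so its counts in both comparisons are a description and not an independent finding. Each gene was represented by its brightest probe set, and 35 of the 48 measured genes lay above the limit for dim probe sets, a 6-array mean of 5.63 on the log2 scale. Of these 35, 22 passed a limma adjusted p of 0.05, against 40.7% of all genes tested. Of the 35, 18 rose (51.4%), 4 fell (11.4%) and 13 did not pass, whereas of all 11448 genes tested 22.0% rose and 18.7% fell. The 3 USF1 knockdown arrays all lay above the 3 USF1 controls in 18 matrix genes and all below in 4, against 29.0% and 24.6% of all genes, or 53.6% on either side. The median change was 0.10 over the 35 genes and 0.01 over all genes tested. Changes of at least 0.25 (log2) that passed were found in 11 genes upward and 2 downward, where 8.37% and 7.68% of all genes did the same. In bulk RNA, fewer cells that express a gene and less RNA per cell cannot be told apart. Without each array in turn, 16 of the 22 called genes stayed past the threshold in every fit, 14 upward and 2 downward, and the exceptions are named with their values. The count of falls was 2 with the replicate block, without a dim filter or with averaged probe sets. Without a dim filter, the calls of COL6A1, FN1, SPARC, THBS1, HSPG2 and GPC1 were lost.

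**Figure D1:**
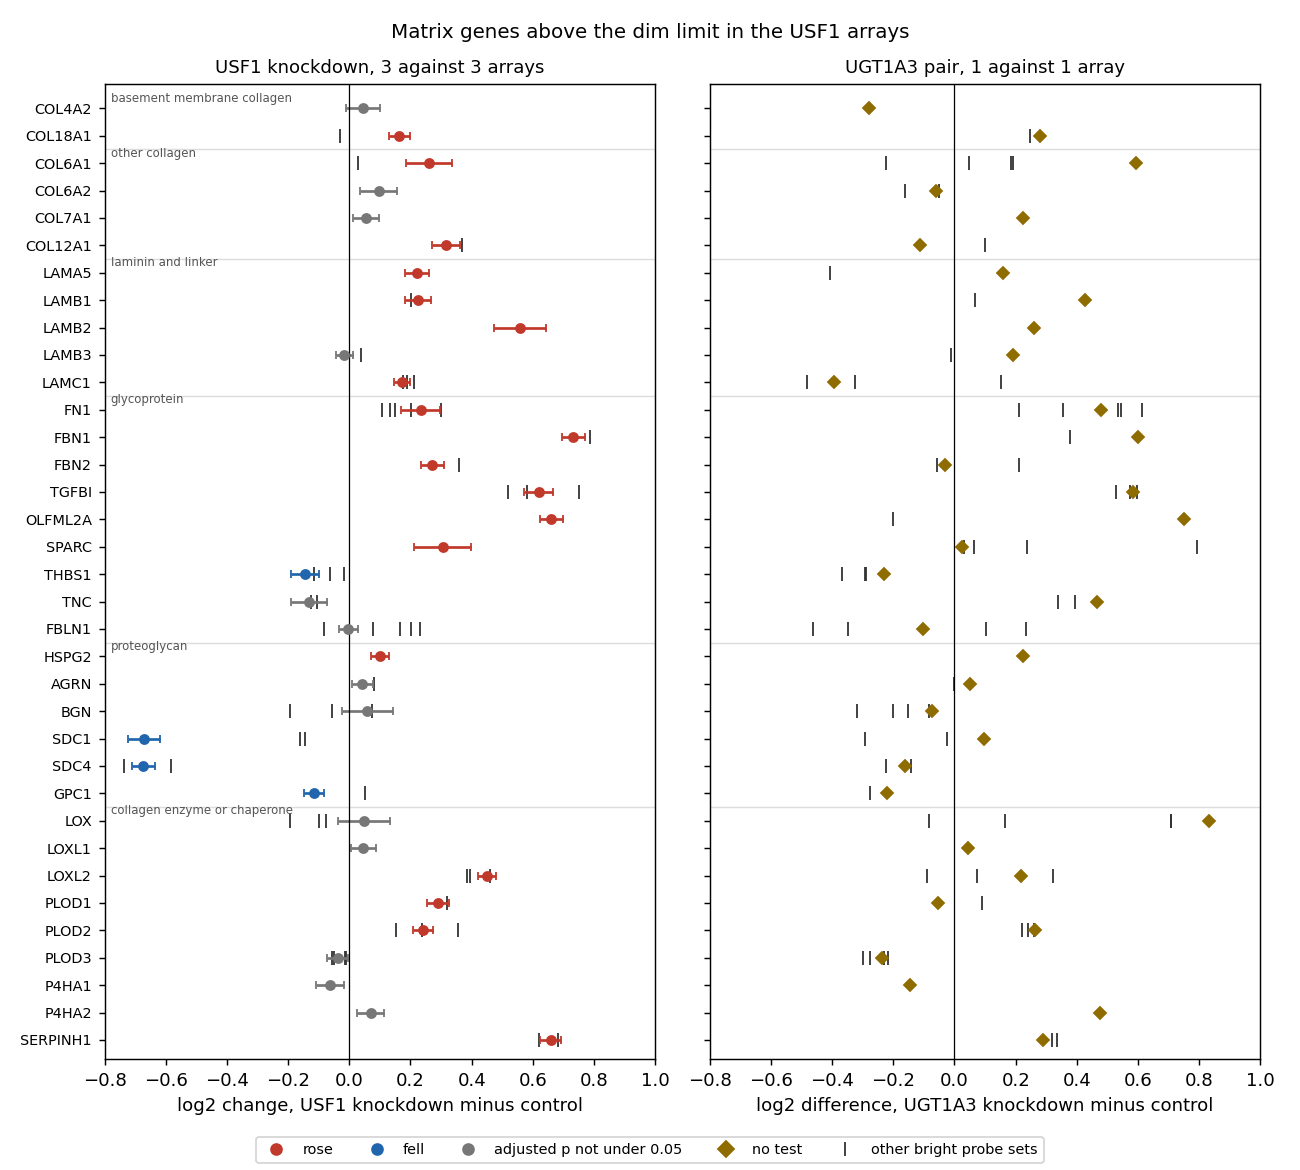
Log2 change of each matrix gene after USF1 knockdown (left, USF1 knockdown minus USF1 control, n = 3 each, bars are the moderated SE) and log2 difference in the UGT1A3 pair (right, 1 array each, no error). Filled symbols are the brightest probe set of a gene in the arrays of that panel. Vertical ticks are its other probe sets above the dim limit. SDC1 and SDC4 sit farthest to the left at -0.67 and FBN1 farthest to the right at 0.73 in the left panel.

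Of the 9 secreted glycoproteins tested, 6 rose and 1 fell, where 22.0% and 18.7% of all genes tested did. FBN1, the fibrillin that forms microfibrils, read 9.28, 9.34 and 9.31 in USF1 knockdown arrays, against 8.56, 8.64 and 8.52 in USF1 controls, on the log2 scale. All 3 knockdown arrays stood well clear of the controls. FBN1 rose by 0.73 (SE 0.04, limma adjusted p = 5.8e-05), or 1.66-fold, and its second bright probe set gave a change of 0.79. Its 3 dim probe sets gave 0.71, 0.45 and 0.22, so all 5 pointed upward. FBN2, the related fibrillin best known from developing tissue and the gene with the CACGTG window above, read 9.07, 8.95 and 8.99 in USF1 knockdown arrays, against 8.71, 8.74 and 8.75 in USF1 controls. It rose by 0.27 (SE 0.04, limma adjusted p = 0.00169), and by 0.16 when its probe sets were averaged.

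TGFBI, a secreted integrin-binding protein named for its induction by TGF-beta, read 7.57, 7.57 and 7.61 in USF1 knockdown arrays, against 6.91, 7.07 and 6.92 in USF1 controls. The groups did not overlap on any of its 4 probe sets, all of them bright. It rose by 0.62 (SE 0.05, limma adjusted p = 0.00018), and the 4 probe sets ran from 0.52 to 0.75. OLFML2A, an olfactomedin-domain glycoprotein, read 7.27, 7.32 and 7.29 in USF1 knockdown arrays, against 6.69, 6.64 and 6.57 in USF1 controls. This was a rise of 0.66 (SE 0.04, limma adjusted p = 7.59e-05). It rests on 1 bright probe set, since the second, dim one gave 0.03 and the mean of both gave 0.34.

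SPARC, a collagen-binding matricellular protein, showed a rise whose size depended on the probe set. Its brightest probe set read 6.29, 6.32 and 6.54 in USF1 knockdown arrays, against 6.21, 5.91 and 6.11 in USF1 controls. The knockdown arrays lay above the controls by a narrow margin, and the change was 0.30 (SE 0.09, limma adjusted p = 0.0385). The call was lost without any 1 of USF1 knockdown 1, 2 or 3 (0.35, 0.34 and 0.23; limma adjusted p = 0.0535, 0.0522 and 0.084) or USF1 control 2 or 3 (0.22 and 0.32; limma adjusted p = 0.0968 and 0.082). The other 7 SPARC probe sets, all dim, gave changes from 0.28 to 0.92, and in 7 of the 8 all knockdown arrays exceeded all controls. With the mean of all 8 probe sets the change was 0.48 (limma adjusted p = 0.000102).

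Fibronectin, FN1, which links cells to collagen through integrins, read 8.29, 8.31 and 8.25 in USF1 knockdown arrays, against 8.19, 7.93 and 8.02 in USF1 controls. The lowest knockdown array exceeded the highest control by a small margin, and the change was 0.23 (SE 0.06, limma adjusted p = 0.0256). Over its 6 bright probe sets the change was 0.11 to 0.30, with 3 of them past the threshold when tested singly. The FN1 call was lost without USF1 knockdown 1 or 2 (0.23 and 0.22; limma adjusted p = 0.0744 and 0.0627) or USF1 control 2 or 3 (0.18 and 0.22; limma adjusted p = 0.0611 and 0.0785). THBS1, a matricellular glycoprotein that can activate latent TGF-beta, was the 1 glycoprotein that fell, by 0.14 (SE 0.05, limma adjusted p = 0.0427). It read 10.02, 10.06 and 9.98 in USF1 knockdown arrays, against 10.23, 10.08 and 10.18 in USF1 controls. That call was lost without USF1 knockdown 1 or 3 (limma adjusted p = 0.1 and 0.105) or USF1 control 1 or 3 (limma adjusted p = 0.125 and 0.116), with changes of -0.15, -0.12, -0.11 and -0.14, with the replicate block (limma adjusted p = 0.0722), and with averaged probe sets (-0.12, limma adjusted p = 0.0626). TNC, an anti-adhesive glycoprotein of remodelled stroma, changed by -0.13 (SE 0.06, limma adjusted p = 0.126), and the fibulin FBLN1 by less than 0.01 in size (limma adjusted p = 0.959). The 6 bright FBLN1 probe sets ran from -0.08 to 0.23, with 2 past the threshold upward when tested singly. THBS2, a relative of THBS1, and EFEMP1, a fibulin of elastic tissue, were dim, with changes of -0.08 and 0.17.

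**Figure D2:**
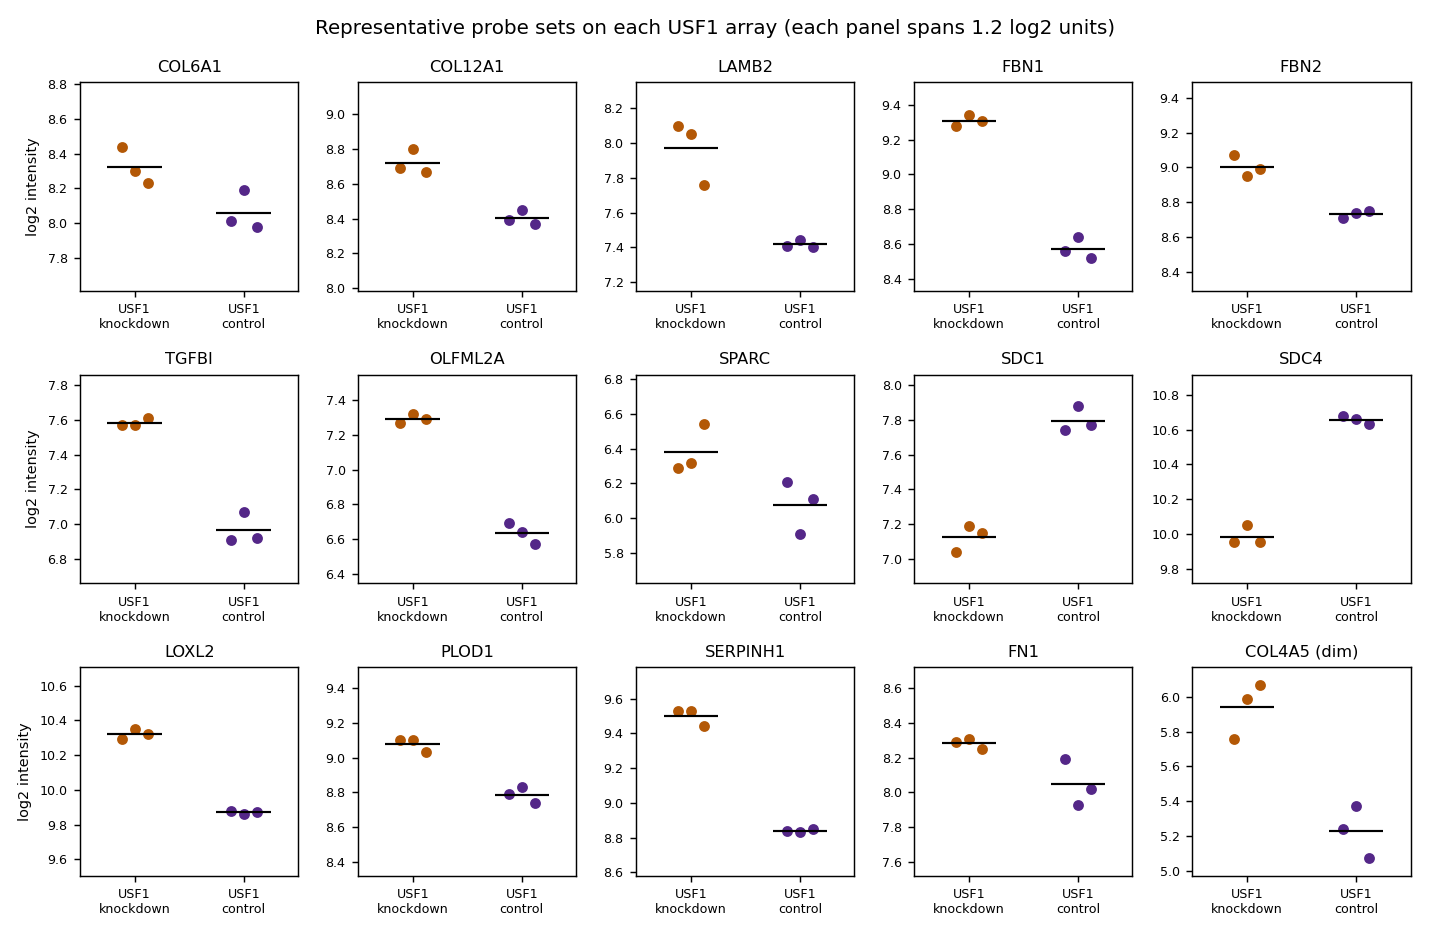
Log2 intensity on each of the 3 USF1 knockdown and 3 USF1 control arrays for the 13 genes that passed with a change of at least 0.25, and for FN1 and the dim gene COL4A5. Points are arrays and bars are group means; every panel spans the same range of log2 units, and in each the groups do not overlap.

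Among the laminins, 4 of 5 tested chains rose and none fell, where 22.0% and 18.7% of all genes tested did. LAMB2 read 8.10, 8.05 and 7.76 in USF1 knockdown arrays, against 7.41, 7.44 and 7.40 in USF1 controls. The third knockdown array was lower than the other 2 but still above all controls. LAMB2 rose by 0.56 (SE 0.09, limma adjusted p = 0.00259) on its single probe set, and by 0.66 without USF1 knockdown 3. LAMB1, the alternative beta chain, rose by 0.22 (SE 0.04, limma adjusted p = 0.00606), LAMA5 by 0.22 (SE 0.04, limma adjusted p = 0.00411) and LAMC1 by 0.17 (SE 0.03, limma adjusted p = 0.00257). LAMA5 and LAMC1 assemble with either beta chain into laminins of epithelial basement membranes. LAMC1 had the tightest arrays, 10.97, 10.95 and 10.93 in USF1 knockdown and 10.77, 10.78 and 10.78 in USF1 control, and its 4 bright probe sets gave 0.17 to 0.21. The remaining, dim LAMC1 probe set gave -0.03, and the call was lost when all were averaged (0.14, limma adjusted p = 0.1). A second, dim LAMA5 probe set gave a change of -0.30, so the mean of both was -0.04 (limma adjusted p = 0.736).

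LAMB3, a chain of the laminin that anchors epithelia through hemidesmosomes, changed by -0.02 (SE 0.03, limma adjusted p = 0.705). It read 10.19, 10.17 and 10.15 in USF1 knockdown arrays, against 10.16, 10.21 and 10.20 in USF1 controls, and the groups overlapped. LAMA4 and NID1, the nidogen that links laminin to collagen IV, were dim, with changes of 0.14 and 0.04.

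The fibril-forming collagens were below the range that could be tested. COL1A1, COL1A2, COL3A1, COL5A1 and COL5A2, the main fibrillar chains of connective tissue, were all dim on the arrays and were not tested, with changes between -0.08 and 0.11. Among the other collagens 3 of 6 tested genes rose and none fell, where 22.0% and 18.7% of all genes tested did. COL12A1, a collagen that decorates the surface of fibrils, read 8.69, 8.80 and 8.67 in USF1 knockdown arrays, against 8.39, 8.45 and 8.37 in USF1 controls. It rose by 0.32 (SE 0.05, limma adjusted p = 0.00212), and its second bright probe set gave 0.37. COL18A1, the basement membrane collagen from which endostatin is cleaved, rose by 0.16 (SE 0.03, limma adjusted p = 0.0095), while its second bright probe set gave -0.03. Averaged over both, COL18A1 changed by 0.07 and did not pass (limma adjusted p = 0.163). COL7A1, the collagen of anchoring fibrils, changed by 0.05 (SE 0.04, limma adjusted p = 0.36), and COL8A1 was dim.

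The collagen VI chains, which assemble together into beaded filaments, differed in level and change. COL6A1 read 8.44, 8.30 and 8.23 in USF1 knockdown arrays, against 8.01, 8.19 and 7.98 in USF1 controls, a change of 0.26 (SE 0.07, limma adjusted p = 0.0287). Its second bright probe set gave 0.03 and the mean of all 6 gave 0.05 (limma adjusted p = 0.3). The COL6A1 call was also lost without USF1 knockdown 1 or 2 (0.20 and 0.27; limma adjusted p = 0.0834 and 0.0526) or USF1 control 1 or 3 (0.24 and 0.22; limma adjusted p = 0.0931 and 0.0917). COL6A2 changed by 0.10 (SE 0.06, limma adjusted p = 0.247) and COL6A3 was dim.

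Of the collagen IV chains, COL4A1 was dim and COL4A2 changed by 0.04 (SE 0.06, limma adjusted p = 0.573); their genes share a promoter region head to head. COL4A5, a chain of the specialised collagen IV network of kidney and lung and the gene with 1 of the GAANNTTC windows above, differed from both. Its brightest probe set read 5.76, 5.99 and 6.07 in USF1 knockdown arrays, against 5.24, 5.37 and 5.07 in USF1 controls. All knockdown arrays lay above the dim limit of 5.63 and all controls below it, so the 6-array mean fell just short and the gene was not among the 35. Tested with no filter on dim probe sets, COL4A5 changed by 0.71 (SE 0.11, limma adjusted p = 0.00655). A second probe set gave 0.55 and the third, the dimmest, -0.07. COL4A5 was the dim gene nearest the limit at a 6-array mean of 5.58, and the dimmest tested gene, COL4A2, stood at 5.83.

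**Figure D3:**
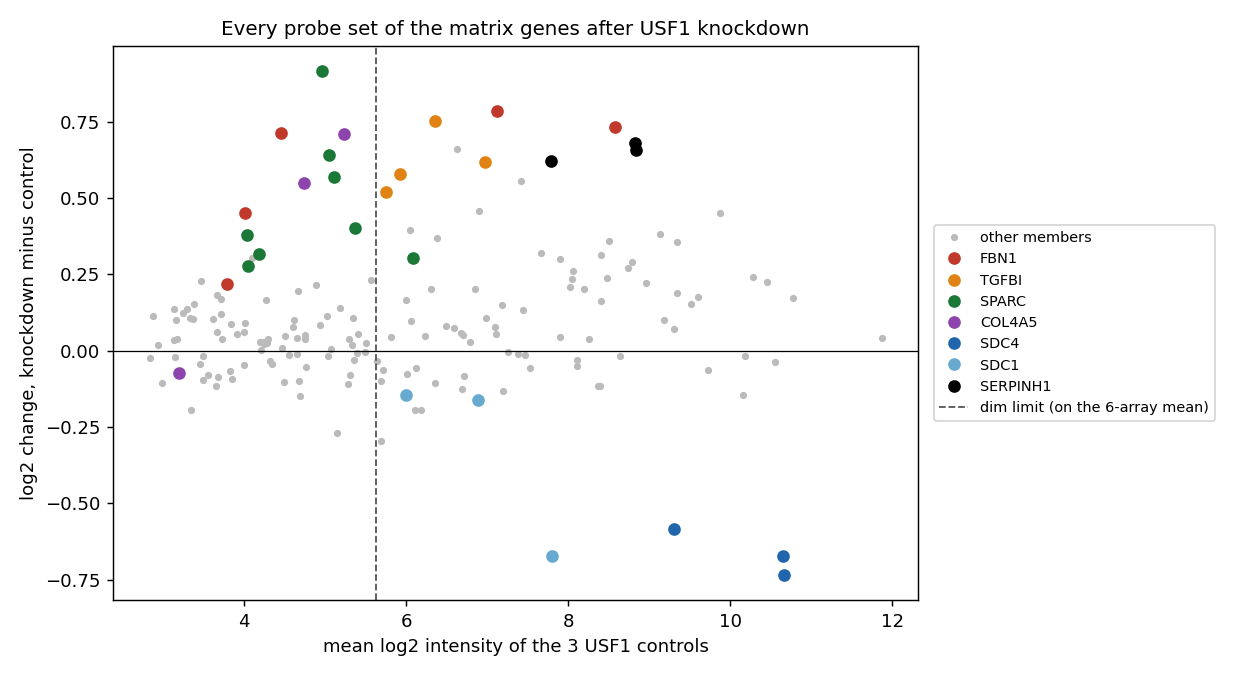
Change after USF1 knockdown (vertical, log2, USF1 knockdown minus USF1 control) of all 179 matrix probe sets against their mean log2 intensity in the 3 USF1 controls (horizontal), with the dim limit of 5.63 as a dashed line. FBN1, TGFBI and SERPINH1 rose at several intensities, SPARC and COL4A5 have most of their probe sets left of the line, and the 3 SDC4 probe sets lie between -0.735 and -0.58.

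The genes that mature and cross-link collagen held 4 rises, no falls and 5 genes that did not pass. Of all genes tested, 22.0% rose and 18.7% fell. SERPINH1, the collagen-specific chaperone of the endoplasmic reticulum, read 9.53, 9.53 and 9.44 in USF1 knockdown arrays, against 8.84, 8.83 and 8.85 in USF1 controls. The groups were separated by several times their own spread on each of 3 probe sets. SERPINH1 rose by 0.66 (SE 0.03, limma adjusted p = 5.53e-05), or 1.58-fold, with 0.62 to 0.68 over the 3 probe sets. LOXL2, a secreted lysyl oxidase that cross-links collagen IV and fibrillar collagens, read 10.29, 10.35 and 10.32 in USF1 knockdown arrays, against 9.88, 9.86 and 9.87 in USF1 controls. It rose by 0.45 (SE 0.03, limma adjusted p = 0.000114), with all 4 bright probe sets between 0.38 and 0.46. Its relatives LOX and LOXL1 changed by 0.05 each (limma adjusted p = 0.69 and 0.396), and the 4 bright LOX probe sets ran from -0.195 to 0.05.

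The lysyl hydroxylases prepare the sites of cross-links. PLOD1 read 9.10, 9.10 and 9.03 in USF1 knockdown arrays, against 8.79, 8.83 and 8.74 in USF1 controls, a rise of 0.29 (SE 0.04, limma adjusted p = 0.00108). PLOD2, the form that hydroxylates the collagen telopeptides, rose by 0.24 (SE 0.03, limma adjusted p = 0.00148), with 0.15 to 0.355 over its 4 bright probe sets. PLOD3 changed by -0.04 (SE 0.04, limma adjusted p = 0.437), with all 5 of its bright probe sets between -0.06 and -0.01. The prolyl hydroxylase subunits P4HA1 and P4HA2, which stabilise the collagen triple helix, changed by -0.06 and 0.07 (limma adjusted p = 0.327 and 0.255).

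The 6 listed proteoglycans were the class with more falls than rises: 3 fell and 1 rose, where 18.7% and 22.0% of all genes tested did. The other tested proteoglycans, from the companion lists, did not share this. GPC6 rose by 0.34 and VCAN by 0.16, and SDC3 (-0.07) and GPC2 (0.09) did not pass. SDC4, a syndecan of focal adhesions that carries heparan sulphate chains, read 9.95, 10.05 and 9.95 in USF1 knockdown arrays, against 10.68, 10.66 and 10.63 in USF1 controls. Every knockdown array lay under every control on all 3 SDC4 probe sets. SDC4 fell to 62.7% of the control level (change -0.67, SE 0.04, limma adjusted p = 6.67e-05), with the 3 probe sets between -0.735 and -0.58. SDC1, the main syndecan of epithelia, read 7.04, 7.19 and 7.15 in USF1 knockdown arrays, against 7.74, 7.88 and 7.77 in USF1 controls. Its change was also -0.67 (SE 0.05, limma adjusted p = 0.000211), yet its other 2 bright probe sets gave -0.16 and -0.14 and did not pass singly (limma adjusted p = 0.0886 and 0.285). With the mean of all 3, SDC1 changed by -0.33 (limma adjusted p = 0.000669).

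GPC1, a lipid-anchored glypican, changed by -0.12 (SE 0.03, limma adjusted p = 0.0307) and HSPG2, the perlecan core protein of basement membranes, by 0.10 (SE 0.03, limma adjusted p = 0.0357). Both calls were near the threshold. The GPC1 call was lost without USF1 knockdown 2 or 3 (limma adjusted p = 0.0689 and 0.0783), without USF1 control 1 or 3 (limma adjusted p = 0.0937 and 0.102), and with the replicate block (limma adjusted p = 0.0604). The HSPG2 call was lost without USF1 knockdown 1 or 3 (limma adjusted p = 0.0995 and 0.0886), without each of USF1 control 1, 2 and 3 (limma adjusted p = 0.112, 0.0807 and 0.0758), and with the replicate block (limma adjusted p = 0.0797). Over all fits without 1 array, whether the call held or not, the change ran from -0.138 to -0.098 for GPC1 and from 0.09 to 0.121 for HSPG2. The second bright GPC1 probe set gave 0.05, and the average of both was -0.03 (limma adjusted p = 0.449). The second, dim HSPG2 probe set gave -0.03, and the average of both was 0.03 (limma adjusted p = 0.739). The HSPG2 call was also lost with quantile normalization (0.095, limma adjusted p = 0.0578), and both calls were lost without a dim filter (limma adjusted p = 0.0863 for GPC1 and 0.101 for HSPG2). Agrin (AGRN) and the small leucine-rich proteoglycan BGN changed by 0.04 and 0.06 (limma adjusted p = 0.366 and 0.616).

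Over all matrix genes, 13 did not pass, with changes from -0.13 to 0.10. When bright probe sets were tested singly, 40 of the 88 of matrix genes rose and 7 fell, where 19.8% and 17.5% of all bright probe sets did. Of the 24 genes with at least 2 bright probe sets, 0 had bright probe sets past the threshold in opposite directions. The same count over all genes was not made, so it is not a trait of the matrix genes. Bright probe sets of the called genes COL18A1 (-0.03 and 0.16) and GPC1 (-0.115 and 0.05) differed in sign, with only 1 of each past the threshold.

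Further matrix genes were taken from companion lists that did not overlap the 49. These lists were also chosen with earlier results of these data known. Among all genes tested 22.0% rose and 18.7% fell, which is the comparison for each count here. Of 20 tested genes of collagen modification and procollagen processing 8 rose and 5 fell. BMP1, the protease that removes the procollagen C-propeptide, rose by 0.52 (SE 0.03, limma adjusted p = 0.000111), PXDN, the peroxidasin that cross-links collagen IV, by 0.42 (SE 0.03, limma adjusted p = 0.000196), and MIA3, a factor of procollagen export, by 0.26 (SE 0.03, limma adjusted p = 0.000713). The prolyl isomerase FKBP14 fell by 0.62 (SE 0.04, limma adjusted p = 0.00011). Of 7 other basement membrane genes 3 rose and none fell, namely LAMA2 (0.29), NTN4 (0.34) and FREM2 (0.39). Among 22 other glycoproteins and proteoglycans 10 rose and 3 fell, including rises of THBS3, a thrombospondin, by 0.375 (SE 0.05, limma adjusted p = 0.00116), of GPC6 by 0.34 and of LTBP1, a carrier of latent TGF-beta, by 0.35, and a fall of osteopontin (SPP1) by 0.51 (SE 0.03, limma adjusted p = 7.63e-05). Of 6 other collagens COL9A3 rose by 0.40 and COL13A1 fell by 0.15.

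The genes that build and edit glycosaminoglycan chains, the sugars carried by the syndecans and glypicans, moved mostly the other way. Of 23 tested genes 2 rose and 12 fell after USF1 knockdown, against 22.0% rising and 18.7% falling among all genes. The list median was -0.11. Changes of at least 0.25 that passed were found in 6 genes downward and 1 upward. In the UGT1A3 pair the list median was 0.105, against 0.018 over all genes. This list too was chosen with earlier results of these data known. EXTL2, a transferase of the chain linkage region, read 9.25, 9.22 and 9.25 in USF1 knockdown arrays, against 9.86, 9.94 and 9.95 in USF1 controls, and fell by 0.68 (SE 0.04, limma adjusted p = 5.39e-05). The sulphotransferase HS6ST1 fell by 0.52 (SE 0.07, limma adjusted p = 0.00186), the xylose kinase FAM20B by 0.44 (SE 0.04, limma adjusted p = 0.000346) and the chondroitin sulphotransferase CHST11 by 0.35 (SE 0.05, limma adjusted p = 0.00232).

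In the UGT1A3 pair, the median difference of the matrix genes was above that of all genes. With 1 array a group there was no replicate check and no p-value, and the values describe these arrays. Of 36 matrix genes above the dim limit of this pair (4.76), 23 were higher in the UGT1A3 knockdown array and 13 lower. The share of all genes that was higher, whatever the size, was not counted. The median difference was 0.17, against 0.02 over all 11620 genes. At least 1.5-fold higher were 5 of the 36, where 2.15% of all genes were, and 0 were at least 1.5-fold lower, where 1.41% of all genes were. When arrays were centred on their median or 16 intensity units were added, only LOX and OLFML2A of the 5 stayed past 1.5-fold, and with averaged probe sets none did. A difference of at least 0.4 upward was found in 9 and downward in none, against 6.8% and 4.6% of all genes. In this pair 2301 of 49293 probe sets had exactly the same value on both arrays, 6 of them matrix probe sets, whereas any 2 USF1 arrays shared 118 to 206 such values.

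LOX, the lysyl oxidase that starts collagen and elastin cross-linking, gave the largest difference of the matrix genes above the limit: 6.58 in the UGT1A3 knockdown array, against 5.75 in the UGT1A3 control, or 0.83. Its 5 bright probe sets ran from -0.08 to 0.83, and 2 of them gave 0.71 each. OLFML2A read 7.50 in UGT1A3 knockdown, against 6.75 in UGT1A3 control, a difference of 0.75, and its other bright probe set gave -0.20. FBN1 read 8.71 in UGT1A3 knockdown, against 8.11 in UGT1A3 control, a difference of 0.60, and all 5 of its probe sets were higher. TGFBI differed by a like amount on each of its probe sets. It read 8.80 in UGT1A3 knockdown, against 8.21 in UGT1A3 control, and its 4 probe sets gave 0.53 to 0.60.

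COL6A1 read 7.96 in UGT1A3 knockdown, against 7.37 in UGT1A3 control, a difference of 0.59, but its bright probe sets ran from -0.225 to 0.59. For FN1 the readings were 7.58 in UGT1A3 knockdown and 7.10 in UGT1A3 control, and its bright probe sets gave 0.21 to 0.61. P4HA2 read 9.07 in UGT1A3 knockdown, against 8.60 in UGT1A3 control (0.48) on its single probe set. TNC read 6.03 in UGT1A3 knockdown, against 5.56 in UGT1A3 control (0.47), and LAMB1 read 9.22 in UGT1A3 knockdown, against 8.79 in UGT1A3 control (0.43, with 0.07 on its second probe set). SERPINH1 and LOXL2, among the larger rises after USF1 knockdown, differed by 0.29 and 0.22 here. SDC4, SDC1 and GPC1 differed by -0.16, 0.10 and -0.22.

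The 2 comparisons share no arrays. Across the 35 matrix genes above the dim limit in both sets, Pearson's r between the USF1 change and the UGT1A3 difference was 0.45, and it was 0.17 across all 11130 such genes; genes are not independent replicates. Of the 11 matrix genes that rose by at least 0.25 after USF1 knockdown, 8 were higher in the UGT1A3 knockdown array, where 75.2% of all genes chosen the same way were higher. Counting both directions, 9 of 13 differed the same way, against 62.3% of all genes. The brightest probe set was taken in each comparison separately, and it was not the same for FBN2, FN1, TNC, FBLN1 and SERPINH1. FBN2 was counted as lower (-0.03), but the FBN2 probe set used for USF1 gave 0.21 in the UGT1A3 pair. For FN1, TNC, FBLN1 and SERPINH1 the UGT1A3 difference had the same direction on either probe set. FBN1, TGFBI and OLFML2A were at least 1.5-fold higher in both. In the UGT1A3 pair TGFBI lay on that limit (0.585), and with centred arrays TGFBI differed by 0.554 and FBN1 by 0.57, both short of it.

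**Figure D4:**
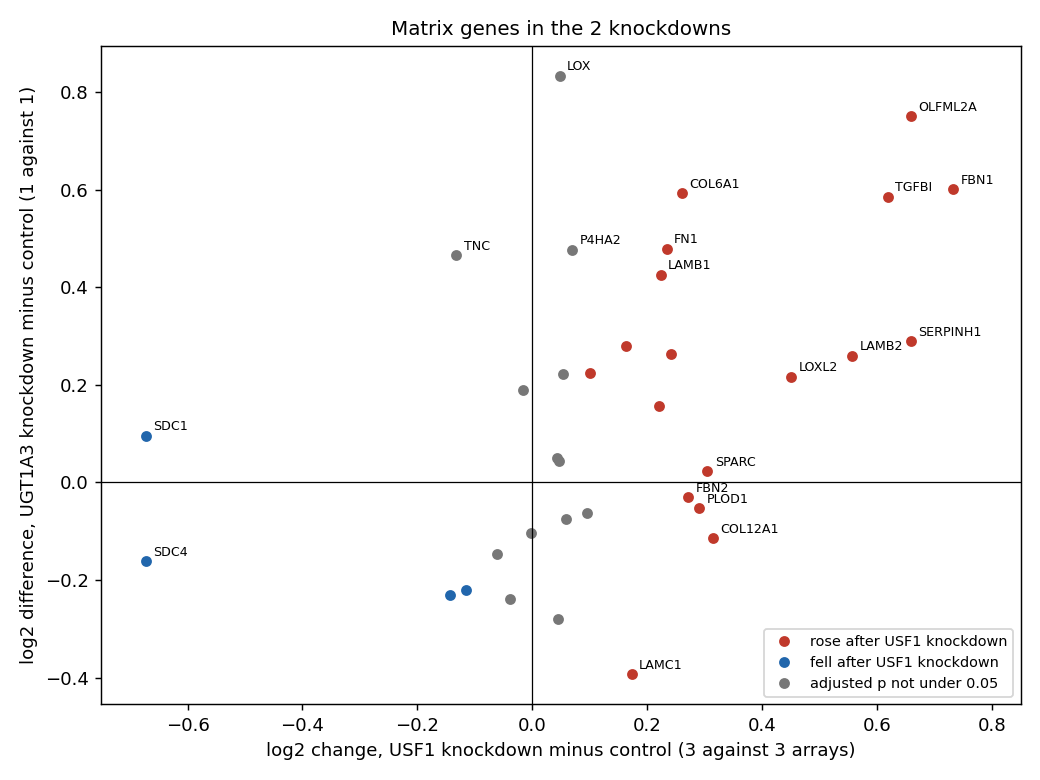
Log2 change after USF1 knockdown (horizontal, 3 against 3 arrays) and log2 difference in the UGT1A3 pair (vertical, 1 against 1 array) of the 35 matrix genes above the dim limit in both sets, coloured by the USF1 call. Each axis uses the brightest probe set of the gene in its own arrays, which differs between the axes for some genes. OLFML2A, FBN1 and TGFBI stand in the upper right, LOX and TNC are high on the vertical axis only, and SDC1 and SDC4 lie at the left.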

How the data were processed

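The deposited table held log2 intensities of probe sets on 8 arrays, with the base judged from their range. Per the submitters' processing notes the tool was MAS5, without a role or version. The sources used here do not give the scaling of the arrays. The 102 control probe sets were left out. Names came from the platform annotation, updated by Entrez number in a RefSeq table (44961 of 44988 probe sets with 1 symbol matched). Each of 18132 genes was its probe set of highest mean, chosen separately over the arrays of each comparison. A gene was left out as dim where that mean was under the 40th percentile over probe sets. The USF1 comparison was fitted with limma 3.58.1 (R 4.3.3) on 6 arrays without a replicate block, with two-sided p-values adjusted by Benjamini-Hochberg over 11448 genes at 0.05; the fit was tested on simulated data. SE is moderated. Alternatives were other scalings, dim limits, 16 intensity units added, probe set means, single probe sets, another prior, the replicate block and leaving out each array. Values on every array are given for genes that passed with a change of at least 0.25, or differed by at least 0.4 in the UGT1A3 pair. They are also given for some others chosen after their values were seen. Companion lists name up to 4 genes by adjusted p in their own paragraphs. Their tested proteoglycans are also named beside the listed ones. The members and lists were chosen with earlier results of these data known.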

Additional observations from a re-analysis of the deposited data

Results flagged for a closer look

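LAMC1 and COL12A1 moved in opposite directions in the 2 knockdowns. LAMC1 rose by 0.17 after USF1 knockdown, with all 3 USF1 knockdown arrays above the USF1 controls, and differed by -0.39 in the UGT1A3 pair (9.01 in the UGT1A3 knockdown array, against 9.40 in the UGT1A3 control). The 4 bright LAMC1 probe sets ran from -0.48 to 0.15 in that pair. COL12A1 rose by 0.32 after USF1 knockdown and differed by -0.11 in the UGT1A3 pair, where its second bright probe set gave 0.10. Both were picked with a minimum size of 0.1 on each side, set after the data were seen. The difference between the knockdowns was not tested.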

How the results depend on the processing

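The count of matrix genes that rose, 18 of 35, was between 13 and 18 in the other fits by gene, and 40 of 88 when probe sets were tested singly. The 4 falls became 2 with the replicate block, without a dim filter and with averaged probe sets, and 7 with single probe sets. Without each array in turn the counts were 14 to 16 upward and 2 to 4 downward. The median change of 0.10 was 0.083 with no filter, 0.173 at a 60th percentile limit, 0.062 with averaged probe sets, and 0.09 to 0.135 without each array. In the UGT1A3 pair the 5 genes at least 1.5-fold apart became 2 with arrays centred on their median or with 16 intensity units added, and 0 with averaged probe sets. The median difference of 0.17 was 0.143 with centring and with 16 units added, 0.082 with no filter, 0.19 at the 60th percentile and 0.1 with averaged probe sets. LAMA5 turned to -0.038 with the mean of both its probe sets, the dimmer of which gave -0.30. Of 305 values of the 22 called genes under the alternatives, 262 kept their direction and their side of the threshold, 42 kept only the direction and 1 reversed. Whether replicate numbers pair the arrays could not be decided from so few arrays. Same-numbered deviations correlated at -0.088, 0.17 and 0.081, and differently numbered ones at -0.226 to 0.155. Besides THBS1, HSPG2 and GPC1, whose calls were lost, the block changed no call of a matrix gene. Calls of changes near 0.1 rest on the spread of few arrays.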
